A study of Mus musculus with 6 samples.

Results

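The proteins that replace or modify histones in the spermatid nucleus were followed here through 10 genes: the protamines Prm1, Prm2 and Prm3, the transition proteins Tnp1 and Tnp2, the linker histone variants Hils1, H1fnt and Hist1h1t, the core histone variant Hist1h2ba and the acetyl-histone reader Brdt. The members were chosen by name, as the mRNA probes whose RefSeq accession belongs to one of these genes under its present or an older symbol. They take 11 probes, of 21905 mRNA probes that could be named (97.5% of 22464) and that stand for 19053 genes. Brdt has 2 probes, for the accessions NM_001079873 and NM_054054, and each of the other genes has 1.

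RNA of whole testis from male C57BL/6 mice was compared between neonatal animals aged 6 days and adult animals aged 8 weeks, with 3 arrays per age, to ask which transcripts differ between the immature and the mature testis. The mice of an age were divided into 3 groups and each array holds the RNA of a group, so the spread between arrays is a spread between groups of animals and not between single mice. The cDNA was primed with oligo dT, labelled with Cy3 and hybridised in 1 colour to an Agilent array of lncRNA and mRNA probes. No animal was treated, and the ages differ in everything that goes with growth to maturity.

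In the elongating spermatid most histones leave the DNA, and transition proteins and then protamines, small and rich in arginine, take their place and pack the chromatin of the sperm head. Testis variants of the linker and core histones enter the chromatin earlier, in spermatocytes and spermatids, and BRDT is a bromodomain protein of the germ line that binds acetylated histones. In the immature testis the tubules hold Sertoli cells and early germ cells, and spermatids appear only later in the first wave of spermatogenesis.

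Signals are given as normalized log2 signal, the log2 of the background-subtracted spot signal relative to the array's 75th percentile, so that 0 marks the 75th percentile and each unit is a doubling. Values under -7.22 were set to -7.22, the floor. The scanner software marks a spot as well above background, and marks some spots as outliers within the array. Outlier-marked spots were left out of the fit, and they made up 10.7%, 9.84% and 30.7% of the spots on neonatal arrays 1 to 3 and 8.32%, 6.11% and 25.4% on adult arrays 1 to 3. Fold changes are adult against neonatal and come from limma, with arrays of the same replicate number treated as a pair. A probe was called if it changed by 5-fold or more with a p of at most 0.05, adjusted by Benjamini-Hochberg over all lncRNA and mRNA probes tested. The 75th percentile itself lay at signals of 2947, 2503 and 1385 on the neonatal arrays and 1856, 1425 and 747 on the adult arrays, and between 65.9% and 69.8% of the spots of an array were well above background. Arrays of 1 age correlated at 0.962 to 0.987 and arrays of different ages at 0.644 to 0.700, and 3 arrays per age limit the precision of every value below.

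Of the 11 member probes, 10 were well above background on all 3 adult arrays, 6 on all 3 neonatal arrays and 5 on no neonatal array. In each of those 10 probes the lowest adult signal lay above the highest neonatal signal, against 26.9% of the 19310 mRNA probes that were measurable on 1 array or more. Of the member probes, 8 had at least 2 complete pairs of arrays and a spot well above background, and these 8 were called higher in the adult testis, against 12.6% of 15121 mRNA probes tested that were called higher and 26.3% called in either direction. With outlier-marked spots kept, the 10 probes that could be tested were called higher, against 12.8% of 19310 mRNA probes higher and 28.2% in either direction. Prm3, H1fnt and Hist1h1t among the 8, and Hils1 as well among the 10, entered the test through the adult arrays alone, and so could only be higher there. The median log2 fold change of the 8 was 12.24, or 12.15 with the probes that lack a neonatal level at their lower bound, against -0.40 and -0.35 over all mRNA probes tested. At an unadjusted p under 0.05 in limma, 4639 of the 15121 mRNA probes tested were higher and 7128 lower. Each such count given for a list below is to be read beside this background, since most probes pass that p. Leaving out adult replicate 2, or replicate 2 of both ages, left 4 member probes to test, and leaving out adult replicate 1, or replicate 1 of both ages, left 5, and each probe that was left was called. Whole testis is a mixture of cells, so fewer cells of a type and less RNA per cell cannot be told apart.

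**Figure D1:**
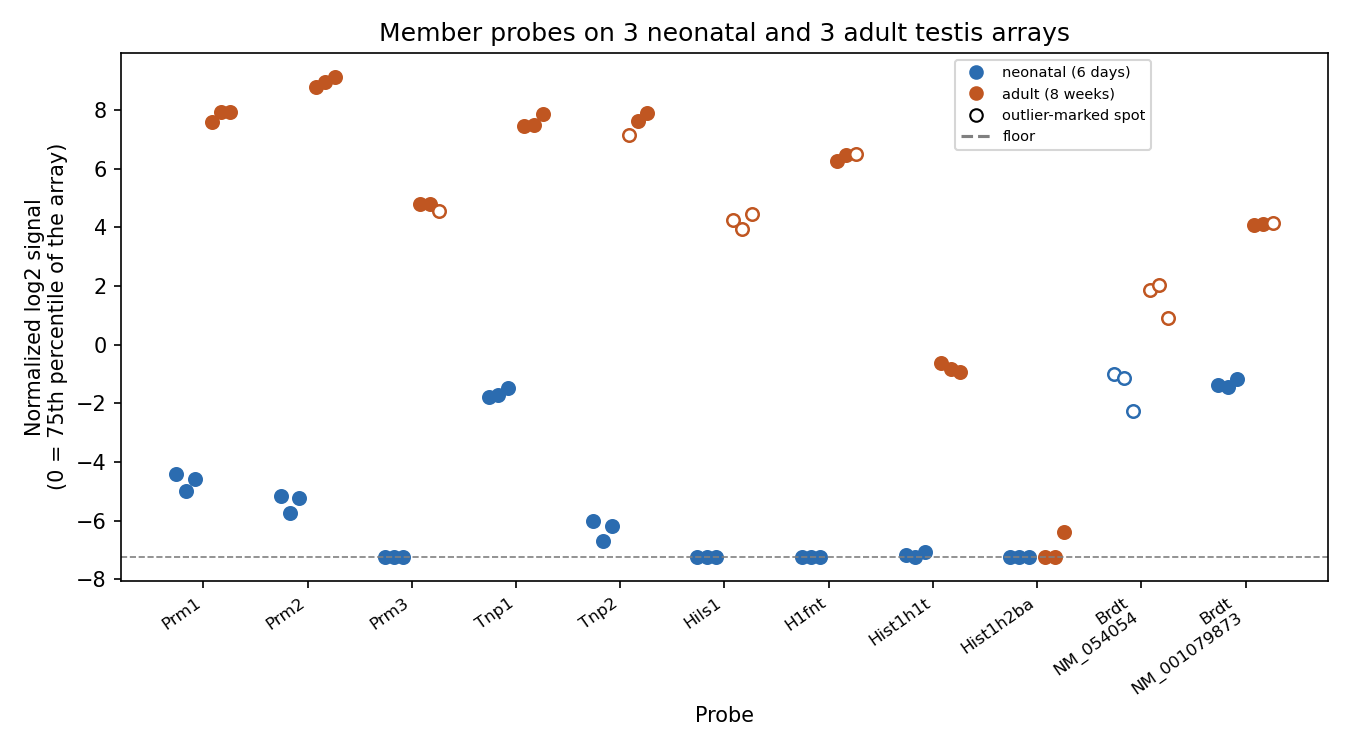
Normalized log2 signal (0 is the 75th percentile of the array) of the 11 member probes on the 3 neonatal (blue) and 3 adult (orange) arrays, a point per array, open where the spot was marked as an outlier; the dashed line is the floor at -7.22. The neonatal points of Prm3, Hils1, H1fnt and Hist1h2ba sit on the floor, and the adult points of Prm2 reach 8.77 to 9.12.

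Prm1, which encodes the protamine found in the sperm of mammals in general, read -4.40, -4.98 and -4.58 on neonatal arrays 1 to 3 and 7.58, 7.93 and 7.93 on adult arrays 1 to 3. The neonatal spots were dim but well above background on all 3 arrays, the adult spots were bright on all 3, and the ages were far apart with no overlap. Prm1 rose by a log2 fold change of 12.47 (SE 0.21, 3 pairs), 5659-fold, with an adjusted p of 8.8e-05 in limma, from a mean of -4.65 ± 0.30 (SD, n = 3) to 7.81 ± 0.20 (SD, n = 3). The pairs of the same replicate number differed by 11.98, 12.90 and 12.51.

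The protamine Prm2, made as a precursor that is processed as the chromatin condenses, read -5.15, -5.73 and -5.24 on the neonatal arrays and 8.77, 8.95 and 9.12 on the adult arrays. All 3 neonatal signals were low though well above background, and every adult signal was high. Its log2 fold change was 14.32 (SE 0.18, 3 pairs), 20461-fold, with an adjusted p of 7.62e-05. Among the 11166 tested mRNA probes well above background on all 6 arrays this was the largest fold change, and Prm1 ranked 10.

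Prm3, a gene of the protamine cluster whose product is acidic, lay at the floor of -7.22 on all 3 neonatal arrays and was well above background on none of them. On the adult arrays it read 4.78, 4.78 and 4.57, the last from a spot marked as an outlier and left out of the fit. Adult signals were high on every array, while the neonatal level is known only as a bound. For a probe without a neonatal level a lower bound of the fold change was made, with the neonatal arrays each set to the dimmest signal that still counted as well above background on that array, or at the probe's own signal where that was higher, against the mean of all 3 adult arrays. The adjusted p printed beside a bound is that of the fit with floored values, and not of the bound. Prm3 was at least 3661-fold higher in the adult testis (adjusted p 0.000126, 2 pairs; neonatal mean -7.22, adult mean 4.71 ± 0.12, SD, n = 3). Another setting, called normexp here, took the median spot signal, corrected it by the normexp method and added an offset of 50, and it differs from the subtracted signals in all 3 of these. After normexp the fitted log2 fold changes of Prm1, Prm2 and Prm3 were 11.76, 12.86 and 10.47, and all 3 were called. Each lower bound in this report holds for the subtracted signals only, since the normexp value of the same probe lies below it, here and for the other probes given as at least a fold.

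Tnp1, the transition protein that is the more abundant of the pair in rodent spermatids, read -1.78, -1.72 and -1.49 on the neonatal arrays and 7.44, 7.48 and 7.86 on the adult arrays. Its neonatal signals were well above background on every array and close to each other, and the adult signals were all high. The log2 fold change was 9.26 (SE 0.10, 3 pairs), 612-fold, with an adjusted p of 7.62e-05, and the pairs differed by 9.22, 9.20 and 9.36. This probe ranked 87 by fold change. Means were -1.67 ± 0.15 (SD, n = 3) in neonatal and 7.59 ± 0.24 (SD, n = 3) in adult testis.

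The transition protein Tnp2, rich in histidine and cysteine and able to bind zinc, read -6.02, -6.69 and -6.17 on the neonatal arrays and 7.13, 7.62 and 7.88 on the adult arrays. Neonatal signals were near the floor though well above background, and adult signals were high on all 3 arrays. The spot of adult array 1 was marked as an outlier, so the fit used 2 pairs and gave a log2 fold change of 14.18 (SE 0.16), 18520-fold, with an adjusted p of 0.000126. This was rank 2 among the probes ranked. With that spot kept the log2 fold change was 13.83, and after normexp it was 12.28 for Tnp2 and 9.20 for Tnp1.

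Hils1, a linker histone of elongating spermatids, lay at the floor on the 3 neonatal arrays and read 4.25, 3.95 and 4.45 on the adult arrays. The adult signals lay 11.47, 11.17 and 11.68 above the floor, distances that depend on where the floor was set. All 3 adult spots were marked as outliers, so the probe was not tested in the fit without such spots. With the spots kept Hils1 was at least 2602-fold higher in the adult testis (adjusted p 1.1e-05, 3 pairs; neonatal mean -7.22, adult mean 4.22 ± 0.25, SD, n = 3).

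H1fnt, the gene of a haploid germ cell linker histone needed for normal elongation of the spermatid nucleus, was at the floor on all neonatal arrays and read 6.26, 6.45 and 6.50 on the adult arrays. No neonatal spot was well above background, and the adult spots were bright and close to each other, with an SD of 0.13 (n = 3). The spot of adult array 3 was marked as an outlier and left out of the fit. H1fnt was at least 11856-fold higher in the adult testis with that spot kept (neonatal mean -7.22, adult mean 6.40 ± 0.13, SD, n = 3). Without it the bound was 11459-fold, and the adjusted p of the limma fit was 0.000126 (2 pairs).

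Hist1h1t, the linker histone of pachytene spermatocytes that stays on into early spermatids, read -7.18, -7.22 and -7.07 on the neonatal arrays, none of them well above background, and -0.63, -0.82 and -0.95 on the adult arrays. The adult signals lay a little under the 75th percentile and well clear of the neonatal ones. A bound of at least 77.5-fold was found (adjusted p 9.5e-05, 3 pairs; neonatal mean -7.16 ± 0.08, adult mean -0.80 ± 0.16, SD, n = 3). Normexp gave a log2 fold change of 3.71 where the subtracted signals gave 6.36, so the size is not settled. Hils1 and H1fnt moved less, to 9.42 and 11.59 after normexp, and were called there as well.

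Hist1h2ba, the H2B of germ cells in the testis, had no spot well above background on any of the 6 arrays. It lay at the floor on all neonatal arrays and on adult arrays 1 and 2, and read -6.38 on adult array 3. Neither age had a measurable level in this oligo dT-primed cDNA, so no fold change is given. Whether the transcript was absent or was missed by the priming or the probe was not tested.

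Brdt has a bromodomain pair that reads acetylated histone tails, and its transcript was measurable at both ages on both of its probes. The probe NM_001079873 read -1.39, -1.45 and -1.16 on the neonatal arrays and 4.08, 4.12 and 4.14 on the adult arrays. Signals were close within each age and the ages did not overlap. The spot of adult array 3 was marked as an outlier, and over the remaining 2 pairs Brdt rose by a log2 fold change of 5.52 (SE 0.14), 45.9-fold, with an adjusted p of 0.000277 and rank 377. All 6 spots of the probe NM_054054 were marked as outliers, so it was not tested without them, and it read -1.0, -1.13 and -2.25 against 1.88, 2.05 and 0.90. On this probe replicate 3 was lower than the others at both ages, and its pairs still differed by 2.88, 3.17 and 3.15. With the spots kept its log2 fold change was 3.07 (SE 0.13), 8.39-fold, with an adjusted p of 9.3e-05, so the probes of the gene gave the same direction and different sizes.

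Replicates 1 and 2 of both ages share a scan date in the file headers, and replicate 3 of both ages has another. Arrays of the same scan date were taken as a slide, named slide 1 and slide 2 here. The slide itself was inferred and not read from the headers. With the slide as the block all 8 tested member probes were called, and the largest change of a log2 fold change was 0.17, in Tnp2, to 14.00. Within slide 1 the 7 member probes that could be tested were called, with log2 fold changes of 12.44 for Prm1, 14.30 for Prm2 and 9.21 for Tnp1. Slide 2 holds 1 pair and allows no test, and there the differences were 12.51 for Prm1, 14.37 for Prm2, 9.36 for Tnp1 and 14.05 for Tnp2. Hist1h1t differed by 6.12 there, but its neonatal spot was not well above background, so this is no measured size. Of 33 adult spots of the members, 10 were marked as outliers and 23 were read from the lower gain scan that the scanner uses for bright spots, against 3 and 0 of 33 neonatal spots.

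**Figure D2:**
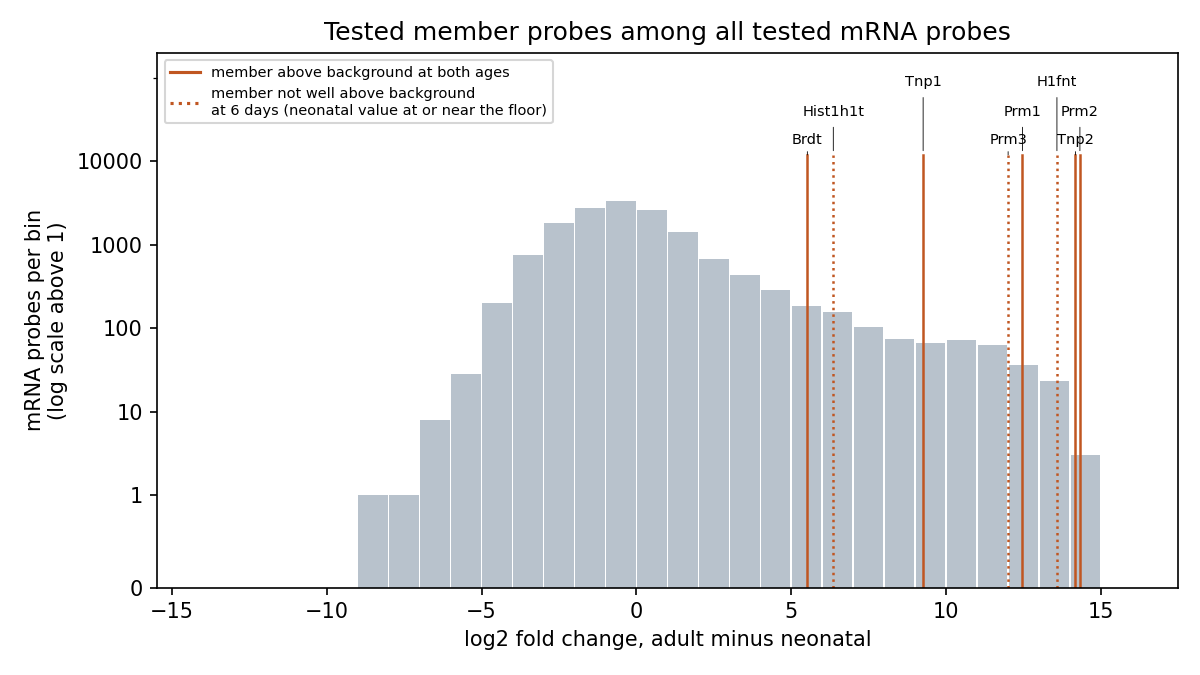
Number of mRNA probes per unit of log2 fold change (adult minus neonatal, log scale above 1 probe) over the 15121 tested, with the 8 tested member probes as orange lines, dotted where the neonatal level is only a bound and the plotted value is the fitted one. Members lie between 5.52 (Brdt) and 14.32 (Prm2), where all tested mRNA probes have a median of -0.40.

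Genes were also placed by their pattern over the 6 arrays, from signals centred on each probe's own mean, by the root mean square difference from the median member profile. That profile equals the values of Hils1 on 5 of 6 arrays, and so lies at the floor on the neonatal arrays and rests on outlier-marked adult spots. The distances depend on where the floor was set, and no likeness to the members is drawn from them. Only 5092 probes were compared with the profile, and probes left out of the comparison may lie nearer to it. Among those compared, the 5 outside the members with the smallest distance were Usp50, a gene of the deubiquitinase family (log2 fold change 11.37), the germ cell gene Gsg1 (probe NM_001080553, 11.62), Tcp10a (11.87), Fhl5 (11.25) and Tex22 (10.69). Each was well above background on all 3 neonatal arrays.

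Other histone variants of the germ line gave a mixed picture, with probes for 5 of 8 genes listed and 3 of them tested. H2afb1, a short H2A variant of the testis, was the only called one, with signals that rose from a mean of -6.13 ± 0.78 (SD, n = 3) to -2.72 ± 0.44 (SD, n = 3), 3.41 on the log2 scale (SE 0.40, adjusted p 0.00239). After normexp the H2afb1 NM_001102665 log2 fold change was 2.29, which was not called. Hist1h2aa and the oocyte linker histone H1foo were well above background on no adult array and on 1 and 2 neonatal arrays, so they have no adult level, and they were not called (adjusted p 0.576 and 0.0898). After normexp the Hist1h2aa NM_175658 log2 fold change was 0.55 and the H1foo NM_138311 log2 fold change was 0.42, also not called, so neither has a settled direction. The H2A variants H2al1m and H2al2a of the spermatid had outlier-marked spots and were chosen for naming after their values were seen. H2al2a was at the floor on the neonatal arrays and read 4.74, 4.96 and 5.01 on the adult arrays, and with the spots kept it was higher by at least 4198-fold (adjusted p 1.1e-05). H2al1m, also at the floor on the neonatal arrays, read -0.53, -1.01 and -0.96, and was higher by at least 78.6-fold (adjusted p 2.4e-05, spots kept). After normexp the H2al2a NM_026627 log2 fold change was 10.07 and the H2al1m NM_029588 log2 fold change was 4.45, below those bounds and still called.

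Somatic linker histones, the H1 proteins that the testis variants accompany or replace, had 7 probes, of which 3 were tested and 0 called in limma, with 2 lower and 0 higher at an unadjusted p under 0.05. Hist1h1a differed by -2.11 on the log2 scale (SE 0.28, adjusted p 0.00326), just short of the fold asked for. Hist1h1e differed by -0.43 (adjusted p 0.0565). The median of the 3 was -0.43, close to that of all mRNA probes. H1f0, chosen for naming after its values were seen, had outlier-marked spots, and read -0.73, -0.58 and -1.18 on the neonatal arrays and -5.50, -6.47 and -6.31 on the adult arrays. With the spots kept it was called lower, by -5.26 on the log2 scale (SE 0.25, adjusted p 0.00013), 1 of 5 probes tested that way, with 2 of its 3 adult spots well above background. The count became 1 lower of 3 without replicate 2 of both ages or adult replicate 2, and also with quantile normalization, median shift or the authors' log2 values.

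Replacement core histones, which are made outside S phase, had probes for 8 of 9 genes, of which 6 were tested and 0 called in limma, with 1 higher and 2 lower at an unadjusted p under 0.05. H2afy2, a macroH2A gene, had a log2 fold change of -1.77 (adjusted p 0.00236) and H2afz one of 0.96 (adjusted p 0.0105). Cenpa, the centromeric H3 and chosen for naming after its values were seen, had outlier-marked spots and was the 1 of 8 probes called lower with them kept, by -3.73 on the log2 scale (SE 0.18, adjusted p 0.000131), with 2 of its 3 adult spots well above background. After normexp the Cenpa NM_007681 log2 fold change was -2.02, which was not called. The median of 0.12 over the 6 tested probes has no settled direction, since it was -0.66 after quantile normalization, -0.09 with arrays shifted to their median and -0.36 in the authors' log2 values.

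Regulators of transcription and translation in spermatids had 25 probes for 13 genes, and of 22 tested 15 were called higher and 0 lower, with 18 higher and 3 lower at an unadjusted p under 0.05. Fhl5, the testis coactivator of CREM, rose from -5.46 ± 0.54 (SD, n = 3) to 5.78 ± 0.38 (SD, n = 3), or by 11.25 log2 units (SE 0.14, adjusted p 7.62e-05). Ybx2, which binds stored germ cell mRNA, protamine mRNA among them, rose by 6.23 (SE 0.18, adjusted p 0.000329). The transcription factor Rfx2 rose on both of its probes, by 5.59 on NM_027787 (adjusted p 0.000273) and by 5.31 on NM_009056 (adjusted p 0.000282). Tarbp2, an RNA binding protein needed for protamine translation, was under the fold asked for at 1.98 (adjusted p 0.0018), as was the histone demethylase Kdm3a at 2.05 on NM_001038695 (adjusted p 0.00193). Crem, the transcription factor of post-meiotic genes, was chosen for naming after its values were seen, and its probes disagree, with 8 of 10 tested called higher. The probe NM_001110859 rose by 3.95 (SE 0.10), while NM_001110851 had a log2 fold change of -0.61 and NM_001110852 one of -0.18, and these were not called. Crem supplied 10 of the 22 tested probes and 8 of the 15 calls, so the list median of 3.70 is largely that of Crem, and by gene 7 of 11 tested had a called probe. Without replicate 1 of both ages 7 of 10 tested probes were called higher, without replicate 2 of both ages 6 of 9, and without adult replicate 2 alone 9 of 12.

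Factors of histone removal and chromatin remodelling had 18 probes for 14 genes, and of 13 tested 5 were called higher and 0 lower, with 7 higher and 3 lower at an unadjusted p under 0.05. Tssk6, a spermatid kinase, rose from -4.99 ± 0.70 (SD, n = 3) to 5.32 ± 0.48 (SD, n = 3), or by 10.31 log2 units (SE 0.13, adjusted p 7.62e-05). Phf7, a ubiquitin ligase that reads histone H3 marks, rose by 5.47 (SE 0.14, adjusted p 0.00027). Hspa2, a chaperone of transition proteins, rose by 4.63 on NM_008301 and by 4.57 on NM_001002012. Chd5, a chromatin remodeller of spermatids, was under the fold asked for on both probes, at 2.06 on NM_001081376 (adjusted p 0.00167) and 1.99 on NM_029216 (adjusted p 0.00177). The median of the list was 1.99, but -0.20 with outlier-marked spots kept, so the list as a whole has no settled direction. Only 1 tested probe was called higher without replicate 1 of both ages (1 of 3), replicate 2 of both ages (1 of 2), neonatal replicate 1 (1 of 4) or neonatal replicate 2 (1 of 3), and 2 of 4 without adult replicate 1 or adult replicate 2.

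Brd2 and Brd3, paralogs of Brdt that are transcribed in most tissues, had 4 probes, all tested, and whether they differ from Brdt in their change was not tested. Brd2 had a log2 fold change of 0.51 (adjusted p 0.0457) and was not called. The 3 probes of Brd3 had log2 fold changes of -0.90 on NM_001113573, -0.75 on NM_023336 and -0.79 on NM_001113574, none of them called. So 0 of 4 probes were called in limma, with 1 higher and 3 lower at an unadjusted p under 0.05, and their median log2 fold change was -0.77 against -0.40 over all mRNA probes tested. At that p 4639 of all 15121 mRNA probes tested were higher and 7128 lower.

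Germ cell content was read from marker lists, each summed over its probes as signal relative to the 75th percentile of the array. Unlike the fit, these sums keep outlier-marked spots, such as those of Odf1 on adult arrays 1 and 3 and of Insl3 on every array but adult array 1. The brightest probe of a list is given by its mean over the arrays of an age. Round spermatid markers summed to 0.624, 0.686 and 1.27 on the neonatal arrays and to 318, 375 and 393 on the adult arrays, with Acr the brightest in neonatal and Odf1 in adult testis. Of 5 tested probes in this list 5 were called higher, and 9 of 9 with outlier-marked spots kept. Among the 5, Tssk1, Acrv1 and Acr were well above background on all 6 arrays and had log2 fold changes of 10.93, 10.69 and 6.32. Tssk2 was well above background on 1 neonatal array and at the floor on the other 2, so no size is given for it, and Catsper1 and the Spam1 probe NM_009241 were well above background on no neonatal array. Left-out arrays lowered the number tested and with it the count, to 2 of 2 without adult replicate 2 or replicate 2 of both ages and to 3 of 3 without adult replicate 1 or replicate 1 of both ages. These markers were high on the same arrays as the members, and their part in the result was not tested.

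Spermatocyte markers summed to 24.4, 20.8 and 29.8 on the neonatal arrays and 140, 151 and 176 on the adult arrays, with Ldhc the brightest in neonatal and Piwil1 in adult testis. Ldhc led the neonatal mean through an outlier-marked spot of 4.22 on array 3, and Sycp1 was brighter than Ldhc on neonatal arrays 1 and 2. Without Ldhc the sums were 18.6, 15.0 and 11.1 against 119, 134 and 121. Of 7 tested probes 4 were called higher, namely Piwil1 at a log2 fold change of 6.31 and the Spo11 probes NM_001083960, NM_012046 and NM_001083959 at 4.88, 4.57 and 4.55. Ldhc at 1.74 (adjusted p 0.00358) was not called, nor was Dmc1 (adjusted p 0.000435), which went the other way and was lower in the adult array of all 3 pairs, with 1 adult spot well above background. The count of 4 fell to 0 of 1 without replicate 1 of both ages, replicate 2 of both ages, adult replicate 1 or adult replicate 2 (with 1 lower without adult replicate 1), and to 1 of 2 without neonatal replicate 1 or neonatal replicate 2.

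Spermatogonial markers went the other way and summed to 126, 134 and 126 on the neonatal arrays and 26.7, 28.5 and 23.9 on the adult arrays, with Uchl1 the brightest at both ages and Gfra1 well above background on no array. Of 8 tested probes 4 were called lower, the Sall4 probes NM_201395, NM_175303 and NM_201396 at -4.43, -4.40 and -4.12 and Stra8 at -2.61. Uchl1 at -2.28 (adjusted p 0.00169) and Kit at -1.73 on NM_021099 (adjusted p 0.00329) were not called. The count became 1 of 1 without replicate 1 or 2 of both ages or of the neonatal arrays alone, and 2 of 9 with no filter on dim probes.

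Of the somatic cells, Sertoli markers summed to 71.8, 73.8 and 51.2 on the neonatal and 17.6, 13.3 and 11.9 on the adult arrays, with Wt1 the brightest by mean at both ages. Fshr at -3.05 and Gata4 at -2.34 were the 2 of 3 tested probes called lower, while Amh at -1.59 (adjusted p 0.000931), well above background on 2 adult arrays, was not called, and the count was 0 of 2 without replicate 2 of both ages and 1 without replicate 1 of both ages or any of neonatal replicates 1, 2 and 3 or adult replicates 1 and 2. Leydig markers summed to 32.0, 35.1 and 30.3 against 82.8, 69.3 and 63.9, with Hsd3b1 the brightest in neonatal and Insl3 in adult testis. Insl3 carries this rise, since without it the sums were 27.0, 29.7 and 28.2 against 27.1, 29.9 and 28.7, and 0 of 4 tested probes were called in limma, with 2 higher and 1 lower at an unadjusted p under 0.05. The smallest adjusted p in that list belonged to Cyp11a1 (1.16, p 0.00937) and Hsd3b1 (-1.04, p 0.01). With outlier-marked spots kept 2 of 8 Leydig probes were called higher, Hsd3b6 by 6.18 (adjusted p 0.000552) and Insl3 by 3.49 (adjusted p 0.000443), both named after their values were seen. Peritubular myoid markers summed to 21.7, 22.0 and 27.0 against 4.80, 4.35 and 6.56, with Myh11 the brightest and Cnn1 well above background on no array. None of the 4 tested myoid probes was called in limma, 3 were lower at an unadjusted p under 0.05, and Myh11 had a log2 fold change of -2.31 (adjusted p 0.00149) and Tagln one of -1.95 (adjusted p 0.00193).

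Macrophage markers summed to 5.16, 5.05 and 4.09 on the neonatal and 4.53, 4.65 and 4.40 on the adult arrays, with Csf1r the brightest in neonatal and Mrc1 in adult testis. Limma called 0 of 2 tested probes, with 1 higher and 1 lower at an unadjusted p under 0.05, Cd163 at a log2 fold change of 1.32 (adjusted p 0.0033) and Csf1r at -0.57 (adjusted p 0.0379). Endothelial markers summed to 8.76, 9.997 and 15.9 against 2.47, 2.09 and 3.58, with Cdh5 the brightest. Of 6 tested probes 3 were called lower, the Pecam1 probes NM_001032378 and NM_008816 at -3.27 and -3.25 and Cdh5 at -2.53, and Tek at -1.03 (adjusted p 0.00177) and Tie1 at -1.52 (adjusted p 0.00325) were not. This count was 0 of 1 without replicate 1 or 2 of both ages or of the neonatal arrays, 2 of 5 without adult replicate 1 or 2, and 0 of 6 with no filter on dim probes. Epididymis markers, listed for tissue carried along with the testis, summed to 9.55, 4.63 and 13.2 against 53.2, 60.2 and 89.6, with Cst8 the brightest and Lcn5 not well above background on any adult array. Cst8 carries this rise, and without it the sums were 6.37, 0.567 and 7.05 against 0.174, 0.352 and 0.520, lower in the adult testis. Neonatal array 2 lay close to adult array 3 in these sums. The high sums of neonatal arrays 1 and 3 rest largely on Crisp1, which read 2.44, -4.34 and 2.51 on neonatal arrays 1 to 3, the last from an outlier-marked spot. Cst8 rose by 3.97 and Defb42, well above background on no adult array, was at least 64.4-fold lower in the adult testis over all 3 neonatal spots (means -0.83 and -7.22; adjusted p 0.000133, spots kept). After normexp the Defb42 NM_001034910 log2 fold change was -3.77, still called. Crisp1 at -3.35 (adjusted p 0.204) was not called, nor was Lcn5, which has no adult level (adjusted p 0.285 on NM_001042630). Without replicate 1 or 2 of both ages or of the neonatal arrays 0 of 2 epididymis probes were called, and without adult replicate 1 or 2 the count was 0 higher and 1 lower of 4. What any of these cell types contributes to the member signals was not tested.

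**Figure D3:**
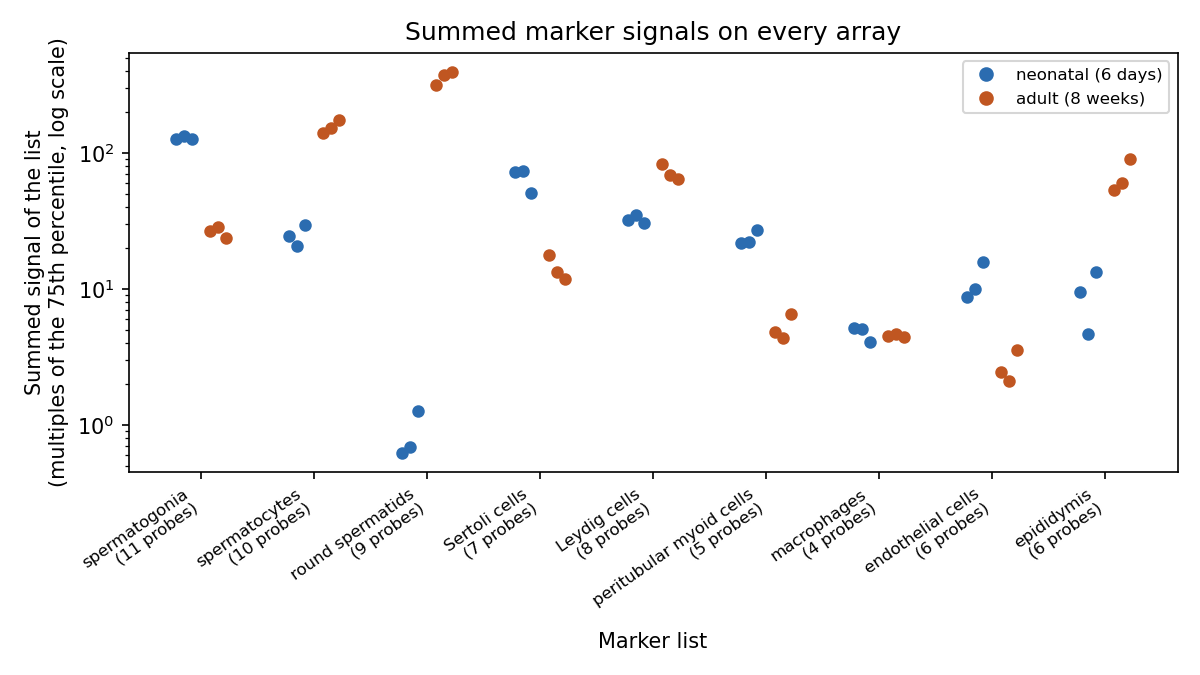
Summed signal of each marker list relative to the array's 75th percentile (log scale), a point per array, neonatal in blue and adult in orange, with outlier-marked spots kept. Round spermatid markers lie between 0.624 and 1.27 on the neonatal arrays and between 318 and 393 on the adult arrays, and spermatogonial markers between 126 and 134 and between 23.9 and 28.5.

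The array also holds lncRNA probes at member loci, and 6 of them are described because the study's own tables place them there. The study listed them for having changed in these samples, so their direction is a description and no independent evidence. Among lncRNA probes 19.9% of 9396 tested were called higher in the adult testis, and 21.2% of 10578 with outlier-marked spots kept. AK006377, which overlaps an exon of Prm1 in the sense direction, read -4.76, -5.25 and -4.75 on the neonatal arrays and 6.00, 7.10 and 6.15 on the adult arrays. All its adult spots were marked as outliers, and with them kept it differed by 11.34 log2 units (SE 0.37, adjusted p 5.1e-05). In the antisense direction, DQ072380 at Prm1 was at the floor on the neonatal arrays and read -1.44, -1.09 and -1.93 on the adult arrays, higher by at least 49.9-fold (adjusted p 6.2e-05, spots kept). DQ072382, antisense at Prm2, was likewise at the floor and then read -0.43, -0.23 and -0.48, higher by at least 108-fold (adjusted p 1.4e-05, spots kept). Neither antisense probe could be tested without outlier-marked spots, and the signals of the sense and antisense probes were high on the same arrays.

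At Tnp1, the bidirectional lncRNA AK006406 read -5.37, -5.73 and -4.82 on the neonatal arrays and 6.07, 6.42 and 7.30 on the adult arrays. Its spot on adult array 3 was marked as an outlier, and over 2 pairs it rose by 11.79 log2 units (SE 0.24, adjusted p 0.000205). The intergenic BC100504 was at the floor on the neonatal arrays and read 5.61, 5.49 and 5.71 on the adult arrays, the last from an outlier-marked spot. It was at least 6818-fold higher with that spot kept (means -7.22 and 5.61) and 6576.5-fold without it (adjusted p 0.000126, 2 pairs). AK006053, also intergenic, was at the floor and then read -1.27, -1.05 and -1.14, the last again from an outlier-marked spot. It was at least 62.8-fold higher with that spot kept (means -7.22 and -1.16) and 62.5-fold without it (adjusted p 0.000267, 2 pairs). Each of the 6 lncRNAs was thus higher on all adult arrays than on any neonatal array. After normexp the log2 fold changes were 9.68 for AK006377, 10.51 for AK006406, 11.15 for BC100504, 4.19 for AK006053, 3.31 for DQ072380 and 4.86 for DQ072382, all called and below the bounds where a bound is given.

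Prm1, Prm2, Prm3 and Tnp2 lie side by side on chromosome 16 in the RefSeq annotation, between Socs1 and Rmi2. Socs1, a suppressor of cytokine signalling chosen for naming after its values were seen, read 0.51, 0.68 and 0.93 on the neonatal arrays and -0.22, -0.46 and -0.27 on the adult arrays. The neighbour on the Tnp2 side thus had lower signals in the adult testis, with a log2 fold change of -0.93 (adjusted p 0.02) that was not called, while the 4 genes inside the cluster were higher. Tnp1 lies on chromosome 1 beside Igfbp5, also chosen after its values were seen, which read -2.07, -2.28 and -3.23 on the neonatal arrays and lay at the floor on the adult arrays (adjusted p 0.000382). Its other neighbour Tns1 had too few unmarked spots to be tested, and differed by -0.24 on the log2 scale with the spots kept (adjusted p 0.284). Beside other members, and named after their values were seen like Tns1, H2bc4 next to Hist1h1t differed by 0.52 (adjusted p 0.0529) and Ppp1r9b next to Hils1 by -0.53 (adjusted p 0.025). On their other sides, H4c3 and Sgca were each well above background on 1 neonatal array only, so no size is given for them. H4c3 read -6.75, -6.52 and -6.80 on the neonatal arrays and higher on the adult arrays, at -3.64, -4.75 and -4.85, all well above background. Sgca read -7.22, -7.22 and -6.11 against -5.79, -6.59 and -4.60, and 2 of its adult spots were well above background. Tgfbr3, next to Brdt, differed by -0.51 (adjusted p 0.0494), and of these neighbours only Igfbp5 was called.

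Since most of the members were higher in the adult testis, the promoters of all 10 were read for short motifs, from 250 bases before to 50 bases after the start of each gene in the RefSeq table of the GRCm38.p6 build. A promoter was found for 10 of 10 members, and each motif was searched on both strands. The full cAMP response element TGACGTCA was in 0 of 10 member promoters and in 1.79% of 32851 promoters of the same length. Its shorter part TGACG was in 2, those of H1fnt and Hist1h2ba, and in 20.8% of all. The variant TGACTTCA was in 1, that of Prm1, and in 1.52% of all. TATAAA was in 2, those of Prm2 and Hist1h2ba, and in 13.6% of all. TGANNTCA, which takes in both 8-base motifs above, was chosen after the promoters were read, and was in 4 (Prm1, Prm3, Tnp1 and Hils1) and in 14.1% of all. These matches describe letters in a window and say nothing of a bound factor. The promoters of protamines, a transition protein and histone variants that hold these motifs are given 5′ to 3′ on the strand of the gene with motif matches in capitals, from chr16:10796774-10797073 for Prm1, chr16:10792056-10792355 for Prm2, chr16:10790865-10791164 for Prm3, chr1:73015850-73016149 for Tnp1, chr15:98257258-98257557 for H1fnt and chr13:23934107-23934406 for Hist1h2ba, all on the minus strand, and from chr11:94967343-94967642 on the plus strand for Hils1.
Prm1: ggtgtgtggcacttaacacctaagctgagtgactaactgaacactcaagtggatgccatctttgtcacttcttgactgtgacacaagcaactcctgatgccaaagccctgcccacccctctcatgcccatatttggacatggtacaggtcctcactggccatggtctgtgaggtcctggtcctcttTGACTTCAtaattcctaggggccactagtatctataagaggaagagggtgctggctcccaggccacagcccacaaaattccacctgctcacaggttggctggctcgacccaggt
Prm2: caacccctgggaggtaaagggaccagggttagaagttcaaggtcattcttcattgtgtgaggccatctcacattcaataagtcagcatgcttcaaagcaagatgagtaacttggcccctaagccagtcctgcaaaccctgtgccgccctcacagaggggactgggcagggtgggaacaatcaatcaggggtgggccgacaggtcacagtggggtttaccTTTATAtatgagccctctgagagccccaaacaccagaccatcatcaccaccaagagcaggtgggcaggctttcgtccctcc
Prm3: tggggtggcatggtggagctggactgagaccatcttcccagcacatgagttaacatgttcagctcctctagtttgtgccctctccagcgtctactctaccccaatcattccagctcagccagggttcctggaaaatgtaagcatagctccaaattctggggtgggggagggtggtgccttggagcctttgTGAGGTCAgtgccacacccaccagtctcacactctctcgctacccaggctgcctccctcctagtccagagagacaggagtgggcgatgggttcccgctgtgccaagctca
Tnp1: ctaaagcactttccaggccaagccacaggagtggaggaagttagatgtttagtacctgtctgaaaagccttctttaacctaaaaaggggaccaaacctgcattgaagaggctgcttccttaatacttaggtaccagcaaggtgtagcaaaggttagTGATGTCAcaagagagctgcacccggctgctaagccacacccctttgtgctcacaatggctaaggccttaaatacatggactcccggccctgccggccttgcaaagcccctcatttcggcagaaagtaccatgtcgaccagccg
Hils1: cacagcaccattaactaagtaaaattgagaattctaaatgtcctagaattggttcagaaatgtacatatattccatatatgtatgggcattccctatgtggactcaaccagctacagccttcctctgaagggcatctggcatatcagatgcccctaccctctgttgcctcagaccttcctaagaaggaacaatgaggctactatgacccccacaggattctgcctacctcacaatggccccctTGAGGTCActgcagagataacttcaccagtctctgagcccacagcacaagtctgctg
H1fnt: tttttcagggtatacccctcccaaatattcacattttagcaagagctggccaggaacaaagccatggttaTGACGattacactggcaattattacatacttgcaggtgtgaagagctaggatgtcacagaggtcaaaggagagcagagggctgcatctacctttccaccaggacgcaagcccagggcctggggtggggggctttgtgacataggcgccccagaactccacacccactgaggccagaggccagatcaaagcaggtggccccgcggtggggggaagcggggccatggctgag
Hist1h2ba: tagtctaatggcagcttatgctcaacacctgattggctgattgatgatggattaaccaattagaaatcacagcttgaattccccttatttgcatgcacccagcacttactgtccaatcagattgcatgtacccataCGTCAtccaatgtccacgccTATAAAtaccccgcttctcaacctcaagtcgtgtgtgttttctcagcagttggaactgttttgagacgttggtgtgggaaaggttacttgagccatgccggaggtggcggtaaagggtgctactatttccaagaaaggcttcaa
Prm1 carries TGACTTCA at -64 to -57 from its start, Prm3 carries TGAGGTCA at -60 to -53, and Tnp1 carries TGATGTCA at -94 to -87. Hils1 carries TGAGGTCA from -7 to 1, the first base of the gene. Prm2 carries TATAAA on the other strand at -31 to -26. H1fnt carries TGACG at -180 to -176, and Hist1h2ba carries it on the other strand at -114 to -110, with TATAAA at -94 to -89. Of the members with a printed promoter only Hist1h2ba had no spot well above background. Whether any of these motifs bears on the signals was not tested.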

How the data were processed

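Testis RNA of 3 neonatal and 3 adult groups of mice was measured on Agilent arrays. Per the file headers, the authors extracted spot intensity with Agilent Feature Extraction 10.5.1.1, and the background-subtracted processed signal was used here. The deposited log2 table holds the authors' values of 26771 probes. On 100% of them it equals, within 0.001 and up to a constant per array, the log2 of the processed signal with lower signals raised to 5. Its array medians are 1.28, 1.30 and 1.27 (neonatal) and 1.20, 1.27 and 1.22 (adult), and how the constants were set is not given in the sources used here. It served only as an alternative.

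Processed signals of 38031 non-control spots per array, none of them saturated, were divided by the array's 75th percentile, raised to a floor of -7.22 and put on the log2 scale. Spots marked as outliers were left out of the main fit and kept in the marker sums. Probes with 2 or more complete pairs that passed the background mark on any array were fitted in limma 3.58.1 (R 4.3.3, lmFit and eBayes). Probe accessions were named through RefSeq tables. Tables and plots were made in Python 3.11.15 with pandas 2.3.3, numpy 2.4.6 and matplotlib 3.10.9. The fit was tested on simulated data.

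The replicate number was the block, since the study's methods use a paired test. Deviations from the group means of same-numbered arrays correlated at 0.341, 0.248 and 0.587 over 14886 probes, so same-numbered arrays varied together. Arrays of different number on the same slide correlated at 0.323 and 0.286, close to the 0.341 and 0.248 of same-numbered arrays on that slide. These values therefore do not separate a pairing by number from the shared slide.

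Members and gene lists were chosen with earlier results of these data known. Named are all member probes, the paralogs Brd2 and Brd3, the 6 locus lncRNAs, and in each other list up to 4 called probes per direction with the largest change and up to 2 tested and not called with the smallest p. Also named are the 5 genes outside the members with the smallest distance from the median member profile among the 5092 probes compared. The lists are other germline histone variants, somatic linker histones, replacement core histones, regulators of spermatid transcription and translation, histone removal and chromatin remodelling factors, the paralogs Brd2 and Brd3, and markers of spermatogonia, spermatocytes, round spermatids, Sertoli, Leydig, peritubular myoid and endothelial cells, macrophages and epididymis. Fhl5 is both a listed regulator and among those 5 genes. A gene chosen for a list is not reported here. Alternatives changed the floor, scaling, background correction, filter, block, variance prior, test, fold threshold, outlier-marked spots and arrays used.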

Additional observations from a re-analysis of the deposited data

How the results depend on the processing

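The 8 member probes called kept their direction and their call under each setting that tested them, except that a single pair on slide 2 allows no test. Without the filter on dim probes a ninth, Hist1h2ba, was tested as well and not called, so 8 of 9 were called. Hils1 and Brdt NM_054054, tested only with outlier-marked spots kept, did so too. Log2 fold changes ranged from 11.76 to 12.71 for Prm1, 12.86 to 14.53 for Prm2, 8.88 to 9.36 for Tnp1, 12.28 to 14.18 for Tnp2 and 5.25 to 5.52 for Brdt NM_001079873. Normexp gave the lowest value for Prm1, Prm2 and Tnp2 and quantile normalization that for Tnp1. With 1 pair the value on slide 2 was 11.68 for Hils1, 6.12 for Hist1h1t, 10.90 for AK006377, 5.29 for DQ072380 and 6.74 for DQ072382. Of these only AK006377 has a neonatal level, and the other values rest on the floor or on a signal not well above background. Signal over background limits Prm3, Hils1, H1fnt, Hist1h1t and Hist1h2ba, which have no neonatal level.

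Without the replicate block 3953 mRNA probes were called, 1915 of them higher, against 3983 and 1908 with it, and the 8 member calls held. The number of mRNA probes called was 2536 with normexp, 59.2% of them higher against 47.9%, and 9057 with a fold of at least 2, where the number of mRNA probes called higher in adult testis was 3530. The median of all mRNA probes moved by -0.33 with quantile normalization, -0.25 with median shift, -0.31 with the authors' values and 0.43 with normexp. Leaving out arrays gave 1773 to 3994 calls, 847 to 1921 higher, and 4 to 8 member probes called. Both arrays of a replicate were left out with the replicate block kept, and single arrays were left out without it, so those fits differ in 2 ways from the paired one.

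Among the lists, normexp left 0 germline variants higher, and 1 myoid and 1 endothelial probe lower. The methods' t-test after adjustment called 0 germline variants and 1 spermatocyte probe higher, and 2 spermatogonial, 1 Sertoli, 0 endothelial and 0 epididymis probes lower, and before adjustment 2, 1, 0 and 0 lower, and either way no somatic linker, core histone, Brd2, Brd3, Leydig, myoid or macrophage probe. With outlier-marked spots kept 3 germline variants, 9 round spermatid and 2 Leydig probes were higher, and 1 somatic linker, 1 core histone, 7 spermatogonial and 4 Sertoli probes lower. Quantile normalization, median shift and the authors' values each called 1 somatic linker and 1 myoid probe lower, and the first and last of these 1 spermatocyte probe lower. No filter on dim probes left 2 spermatogonial and 0 endothelial probes lower. A fold of at least 2 called lower 1 somatic linker, 1 core histone, 2 regulator, 2 removal, 7 spermatogonial, 1 spermatocyte, 1 Leydig, 3 myoid and 6 endothelial probes, and higher 2 Leydig and 1 macrophage probe. Leaving out arrays gave 6 to 15 regulators, 1 to 5 removal factors, 2 to 5 round spermatid, 0 to 4 spermatocyte and 0 to 1 epididymis probes higher, and 0 to 1 somatic linker, 1 to 4 spermatogonial, 0 to 1 spermatocyte, 0 to 2 Sertoli, 0 to 3 endothelial and 0 to 1 epididymis probes lower.

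Settings for Hils1, Brdt NM_054054, the locus lncRNAs and the lists, and the motif TGANNTCA, were added after seeing the data. The cause of these changes was not tested.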

Other observations

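The epididymis marker Crisp1 differed widely between the neonatal arrays, with signals of 2.44 on array 1, -4.34 on array 2 and 2.51 on array 3, against -4.23, -4.37 and -5.30 on the adult arrays. Defb42, another gene of the epididymis, read -0.57, -1.65 and -0.27 on the neonatal arrays and was well above background on no adult array.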
